A study of Mus musculus with 9 samples.

Results

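The genes described here are 34 genes of the endoplasmic reticulum (ER) that fold newly made secretory proteins, remove those that fail to fold, or sense and answer their build-up in the unfolded protein response. They were chosen by name from a list of gene symbols, with earlier results of these data known. Each had a row among the 53924 named rows of the deposited tables. By role they were 9 folding chaperones and co-chaperones, 8 disulfide and prolyl isomerases, 3 secreted stress-induced proteins, 8 genes of ER-associated degradation, 3 stress sensors with the transcription factor Xbp1, and 2 subunits of the translocon. RNA of mouse cerebellum had been sequenced in bulk, in 3 groups of 3 libraries. Control mice had received saline. The group called 3AP had received 3-acetylpyridine, a toxic analogue of nicotinamide that kills inferior olive neurons and is used to cause ataxia. The group called PLX3AP had received 3-acetylpyridine and also PLX3397, an inhibitor of the CSF1 receptor that is used to deplete microglia. A group given PLX3397 alone was not analysed here, so PLX3AP and control differed in both agents. The sources used here give no strain, age, dose or timing. They also do not say whether the libraries were of separate animals, so the p-values measure the spread between these libraries, which may be technical. In bulk tissue, fewer cells of a type and less RNA per cell cannot be told apart.

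Proteins that enter the ER are bound by chaperones such as BiP, the product of Hspa5, which also holds the stress sensors inactive. When unfolded proteins accumulate, the sensors IRE1 (Ern1), PERK (Eif2ak3) and ATF6 are freed. IRE1 splices the mRNA of Xbp1 into that of an active transcription factor, PERK slows translation and favours ATF4, and ATF6 is cut to release its own factor. XBP1 and ATF6 raise the genes of chaperones, isomerases and degradation through promoter elements such as the ER stress response element (ERSE). Purkinje cells and other large secretory or membrane-rich neurons carry abundant ER.

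Across the libraries, estimated counts summed to between 18452256 and 22358447, and the 34 ER genes were among the 16634 genes with enough counts to test. Microglial markers summed to 131 to 142 CPM (read counts scaled to the total of the library) in control, 245 to 292 in 3AP and 76.8 to 121 in PLX3AP. Markers of Purkinje cells summed to 6680 to 8340, 7220 to 8340 and 7720 to 8270 CPM in the same order, with overlapping ranges. Ttr, transthyretin, which the choroid plexus secretes, ran from 11.4 to 3764 CPM and varied within every group.

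Levels can be compared between genes only per transcript length, on the TPM scale. Calr, an ER lectin chaperone that binds calcium, had the highest mean TPM in control (361 ± 22.5, SD, n = 3). It was followed by Hspa5 at 293 ± 7.73 TPM and by Manf, a secreted protein that binds BiP and protects neurons, at 254 ± 22.3 TPM. At the other end, Pdia5 (1.09 TPM), Cdnf (1.27), Derl3 (2.09) and Ern1 (2.94) had the lowest control means. Pdia5 rested on 15 to 42 estimated counts a library, Cdnf on 20 to 48 and Derl3 on 12 to 26, so their values are imprecise. By PLX3AP, the mean TPM of Hspa5 was 163 ± 11.7 and that of Manf 141 ± 6.59, each below the control range.

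**Figure D1:**
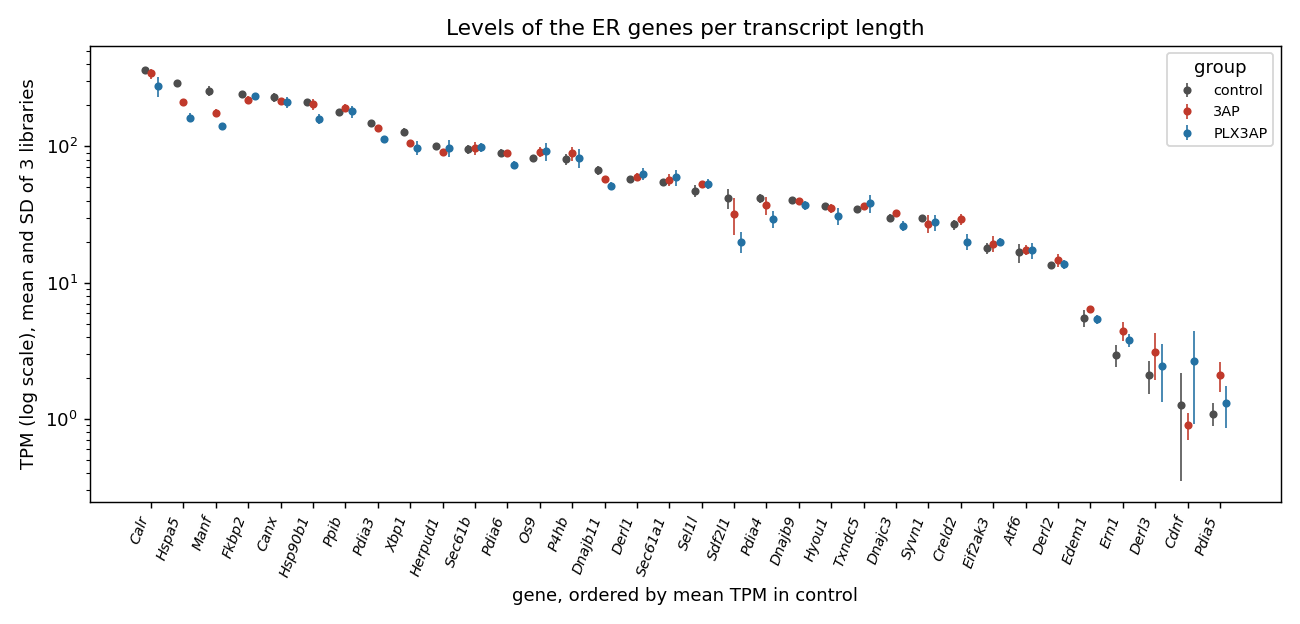
Mean TPM (log axis) of each of the 34 ER genes in control, 3AP and PLX3AP, ordered by the control mean, with bars for the SD of 3 libraries. Calr, Hspa5 and Manf had the highest control means (361, 293 and 254 TPM), and Hspa5 and Manf stepped down from control to 3AP to PLX3AP.

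Hspa5 lies on chromosome 2 from 34771970 to 34777547 on the plus strand (GENCODE M21, GRCm38). Its upstream sequence is shown because the gene moved in all 3 comparisons and its window holds an ERSE. The 250 bases before its RefSeq start (GRCm38.p6, read 5′ to 3′ on the plus strand) follow, with each CCAAT and CCACG, on either strand, in capitals.
Hspa5 (chr2:34771840-34772089, plus strand): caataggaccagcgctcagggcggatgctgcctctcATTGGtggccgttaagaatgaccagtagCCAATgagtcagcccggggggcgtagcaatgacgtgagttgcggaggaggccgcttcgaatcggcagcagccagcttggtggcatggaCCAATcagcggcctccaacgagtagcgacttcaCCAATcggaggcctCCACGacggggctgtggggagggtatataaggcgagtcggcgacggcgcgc
This window held 4 copies of CCAAT and 1 of CCACG, and a single pair of them had the spacing of an ERSE. GENCODE places its gene start within this window, at 34771970. By that start the ERSE, within 34772015 to 34772053, lies inside the gene. An ERSE was searched as CCAAT, any 9 bases, CCACG, and its variant ERSE-II as ATTGG, any 1 base, CCACG, on both strands of the RefSeq windows (250 bases before to 50 after each start). An ERSE contains both shorter motifs, so these searches overlap. Windows were found for 29 of the 34 genes. Atf6, Derl1, Hyou1, Manf and Sec61a1 had none.

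An ERSE was found in 9 of the 29 genes, against 37 of all 27025 genes with a window (0.137%), which include the 9. ERSE-II was found in 2 of the 29 (Herpud1 and Dnajb11), against 12 of all genes (0.0444%). The parts alone were common: CCACG was in 24 of the 29 and 35.5% of all genes, and CCAAT in 24 and 41.1%. TGACGTGG, the core of another XBP1 and ATF6 element, was in Txndc5 alone of the 29 and in 0.714% of all genes. The ATF4 and CHOP motif TGATGNAAT was in 0 of the 29 and in 1.08%. The matches upstream of the RefSeq start are printed on each gene's strand, so an element on the other strand reads from CGTGG to ATTGG. Capitals mark the ERSE (ERSE-II in Herpud1), with 10 flanking bases, and Hsp90b1 is shown long enough to hold both of its elements.
Hspa5 (chr2:34772015-34772053, plus strand): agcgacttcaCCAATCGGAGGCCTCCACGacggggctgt
Hsp90b1 (chr10:86705523-86705666, minus strand): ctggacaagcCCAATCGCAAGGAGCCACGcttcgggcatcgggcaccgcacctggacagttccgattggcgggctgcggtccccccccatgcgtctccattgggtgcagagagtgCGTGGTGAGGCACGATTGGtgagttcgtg
Dnajc3 (chr14:118937817-118937855, plus strand): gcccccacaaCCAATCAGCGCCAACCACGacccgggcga
Calr (chr8:84847065-84847103, minus strand): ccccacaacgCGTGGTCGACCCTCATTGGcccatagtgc
Canx (chr11:50325790-50325828, minus strand): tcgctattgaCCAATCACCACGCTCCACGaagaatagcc
Pdia6 (chr12:17266481-17266519, plus strand): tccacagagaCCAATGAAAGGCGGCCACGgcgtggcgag
Creld2 (chr15:88819510-88819548, plus strand): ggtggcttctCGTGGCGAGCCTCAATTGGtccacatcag
Syvn1 (chr19:6046522-6046560, plus strand): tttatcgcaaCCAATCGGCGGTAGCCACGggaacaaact
Derl3 (chr10:75893232-75893270, plus strand): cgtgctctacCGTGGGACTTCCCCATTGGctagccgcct
Herpud1 (chr8:94386367-94386397, plus strand): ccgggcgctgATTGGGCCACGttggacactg
A match describes the letters only and does not show that a factor bound there.

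Setting 3AP against control asks about the effect of 3-acetylpyridine. Of the ER genes, Hspa5, Manf and Xbp1 fell, and none was called higher. Hspa5 and Manf fell by about as much, 1.41-fold and 1.47-fold, and the other chaperones and the degradation genes did not pass the test. The genes called were 3 of 34 lower, against a background of 1.18% of all genes tested, and 0 of 34 higher, against 3.75% (4.93% in either direction; edgeR's quasi-likelihood test, Benjamini-Hochberg adjusted p under 0.05 over all genes). At an unadjusted p under 0.05, 8 were lower and 3 higher, against 1078 lower and 1748 higher of all 16634 genes. DESeq2 and limma-voom also called 0 higher. The median log2 fold change over the 34 genes was -0.04, against 0.0 over all genes, so the list as a whole lay near the centre. On the log2(TPM + 1) scale the list's median was 0.01, against 0.05 over all genes. The 3 control libraries all lay above the 3 of 3AP in 8 ER genes (7.89% of all genes) and all below in 4 (16.7% of all genes). These counts and shares are of CPM, without the normalisation factors of the fit, and include narrow gaps. Dnajc3 was among the 4 by 96.6 CPM in 3AP replicate 2 against 96.4 in control replicate 1. Its fitted log2 fold change was 0.063 (edgeR adjusted p = 0.76).

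Hspa5 measured 431, 454 and 469.9 CPM in control and 341, 329 and 310.5 CPM in 3AP. In PLX3AP it measured 247, 251 and 257 CPM. The groups did not overlap anywhere: every control library was above every 3AP library, and every 3AP library above every PLX3AP library. Group means were 451 ± 19.7, 327 ± 15.5 and 252 ± 4.72 CPM (SD, n = 3 each). In 3AP against control the log2 fold change was -0.50 (SE 0.067, edgeR adjusted p = 0.00071), a level 29.3% lower. It ranked 150 by p among all genes and 20 among those that were lower.

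Manf (chromosome 9, 106838312 to 106891979, minus strand) measured 81.2, 88.0 and 98.7 CPM in control and 68.6, 62.3 and 55.2 CPM in 3AP. In PLX3AP its values were 52.7, 51.6 and 49.5 CPM. Here too the groups did not overlap, with control highest and PLX3AP lowest. Its log2 fold change in 3AP against control was -0.56 (SE 0.096, edgeR adjusted p = 0.004).

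Xbp1 (chromosome 11, 5520659 to 5525893, plus strand) measured 131, 149.8 and 152 CPM in control and 120.5, 121 and 112 CPM in 3AP. In PLX3AP it measured 97.7, 113 and 113 CPM. All control libraries were above the rest, while 3AP and PLX3AP overlapped. The log2 fold change in 3AP against control was -0.33 (SE 0.082, edgeR adjusted p = 0.037). Gene-level counts do not tell the spliced Xbp1 mRNA from the unspliced one. The call of Xbp1 was lost on TPM (adjusted p of 0.23 to 0.33), and without control replicate 2 or 3 or any one 3AP library (0.089 to 0.14), and with the replicate number as a block (0.077).

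Markers of other cells also differed between 3AP and control, where Hspa5, Manf and Xbp1 fell. Granule cell markers summed to 3170 to 3360 CPM in control, 2600 to 2990 in 3AP and 2990 to 3310 in PLX3AP. Their median log2 fold change in 3AP against control was -0.28, with 5 of 5 below 0, 4 of them at an unadjusted p under 0.05 and 0 called by edgeR. Oligodendrocyte markers summed to 5780 to 7440, 5320 to 6530 and 6690 to 7320 CPM, with a median log2 fold change of -0.41 in 3AP against control, 4 of 5 below 0, 3 of them at an unadjusted p under 0.05 and 0 called. Of 6 astrocyte and Bergmann glia markers, edgeR called Aqp4 (log2 fold change -0.49) and Hopx (-0.76) lower and Gfap (1.82) higher, and their sums were 2870 to 3150, 3080 to 3940 and 2830 to 3130 CPM. In PLX3AP against control 0 of the granule cell, oligodendrocyte and astrocyte markers were called, with 1 granule cell and 1 astrocyte marker lower at an unadjusted p under 0.05. The part of these cell types in the changes of the ER genes was not tested.

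Among the sensors, Ern1, the IRE1 kinase and ribonuclease, measured 10.1, 13.8 and 10.4 CPM in control, 15.3, 16.0 and 16.4 in 3AP, and 15.7, 12.3 and 15.6 in PLX3AP. The 3AP libraries were all above control, but its log2 fold change of 0.44 (SE 0.142) did not pass (edgeR adjusted p = 0.11). Eif2ak3, the PERK kinase, measured 51.0, 45.0 and 47.8 CPM in control, 44.3, 52.0 and 52.2 in 3AP, and 52.1, 52.3 and 53.1 in PLX3AP. Its PLX3AP values were all above control by a small margin, with a log2 fold change of 0.11 (edgeR adjusted p = 0.69). Atf6 measured 82.6, 77.2 and 64.5 CPM in control, 75.5, 83.0 and 72.4 in 3AP, and 75.9, 68.7 and 83.9 in PLX3AP. Its groups overlapped throughout, and its log2 fold changes lay between 0.0 and 0.01 in size.

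**Figure D2:**
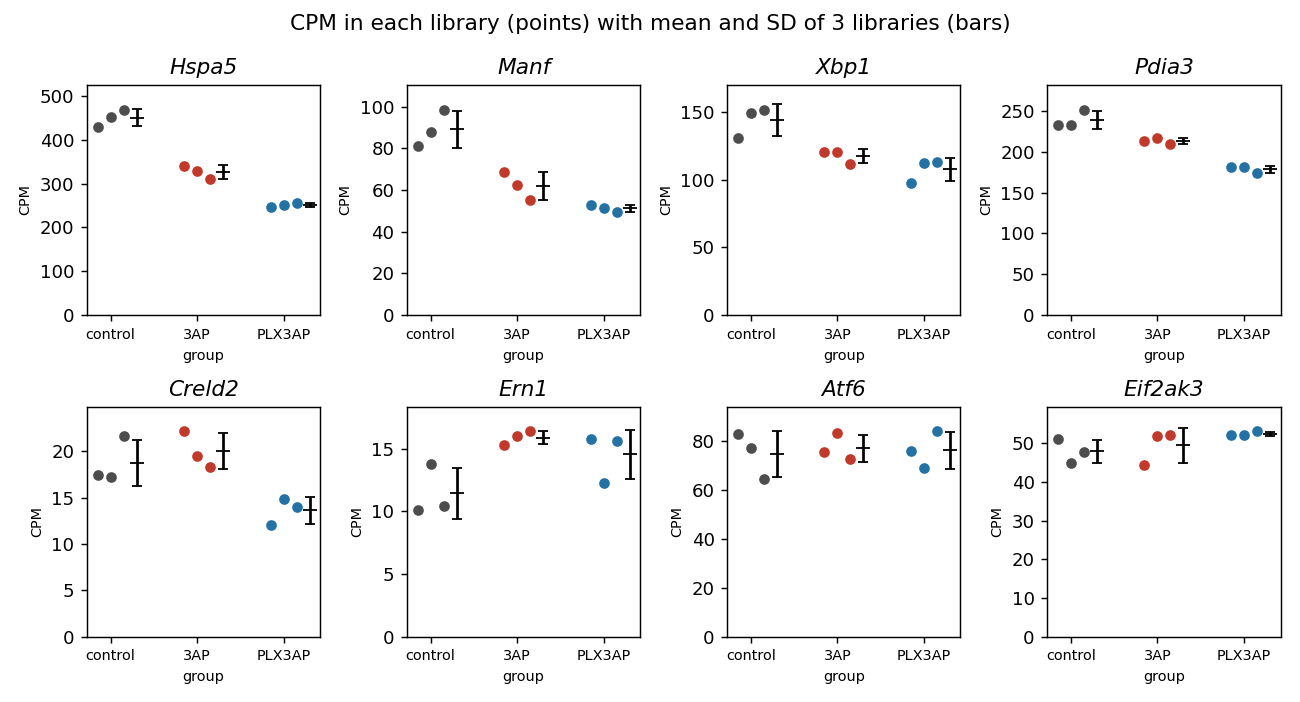
CPM in each library (points) with group mean and SD of 3 libraries (bars, axes from 0) for the 5 ER genes called in any comparison and the 3 sensors. Hspa5 falls in 2 separate steps from 451 to 327 to 252 CPM, whereas Atf6 overlaps in all groups (means of 74.8, 77.0 and 76.2 CPM).

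The degradation genes, which return misfolded proteins to the cytosol, showed no call in any comparison with all 9 libraries by edgeR, DESeq2 or limma-voom. Without PLX3AP replicate 1, edgeR called Edem1 lower in PLX3AP against 3AP (log2 fold change -0.43, adjusted p = 0.045). At an unadjusted p under 0.05, 1 was lower and 1 higher in 3AP against control, 1 was lower in PLX3AP against 3AP and 0 in PLX3AP against control. Edem1, which delivers misfolded glycoproteins for degradation, averaged 17.2 ± 0.87 CPM in control, 22.5 ± 0.388 in 3AP and 17.9 ± 2.40 in PLX3AP. Its log2 fold change in 3AP against control was 0.35 (SE 0.11, edgeR adjusted p = 0.099), with 3AP above control in every library. Herpud1, a membrane protein of the retrotranslocation complex, averaged 103, 90.3 and 96.6 CPM in the same order. Its 3AP libraries were all below control, while Syvn1, Sel1l, Os9, Derl1 and Derl2 overlapped between all groups. Syvn1, the ubiquitin ligase, averaged 58.1, 53.3 and 53.1 CPM. Its partner Sel1l averaged 166, 181 and 185 CPM. For the lectin Os9 the means were 121, 133 and 132 CPM. The derlins form the channel through which substrates leave. They averaged 107, 109 and 114 CPM (Derl1), 26.1, 25.7 and 24.6 (Derl2) and 0.9, 1.17 and 0.924 (Derl3). Sec61a1 and Sec61b are subunits of the channel through which proteins enter the ER, and neither was called by any of the 3 tools. Sec61a1 averaged 96.6, 98.1 and 102 CPM, and Sec61b 17.9, 18.0 and 17.9 CPM, with overlapping groups.

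**Figure D3:**
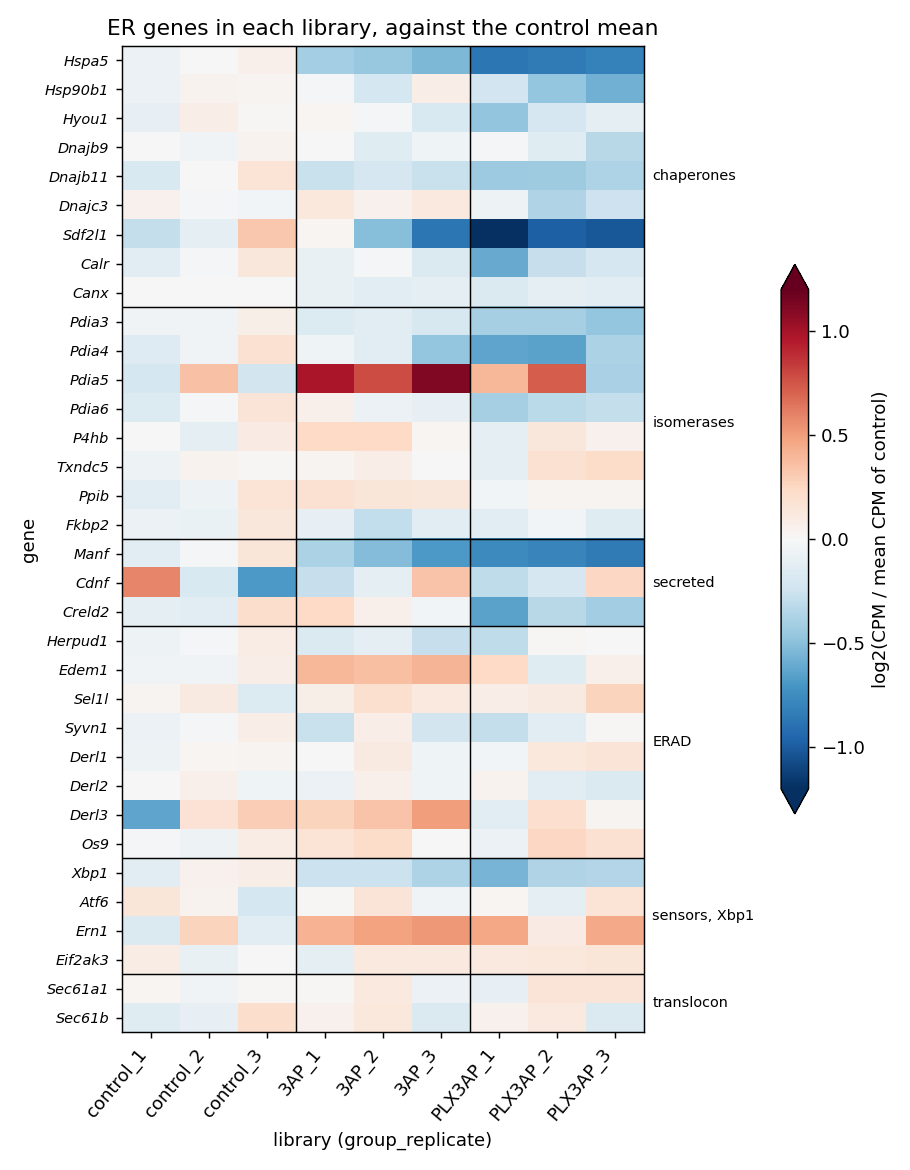
Log2 ratio of CPM in each library to the control mean for the 34 ER genes (rows, grouped by role) in the 9 libraries (columns). Hspa5, Sdf2l1 and Manf are the darkest blue rows in PLX3AP, and the degradation and translocon rows are pale, apart from Edem1 and Derl3, the latter resting on 12 to 26 counts.

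PLX3AP set against 3AP asks about the effect of PLX3397 in mice that received 3-acetylpyridine. Hspa5 and Creld2 fell, and no ER gene was called higher. Hspa5 was therefore lower again in PLX3AP than in 3AP, by 1.29-fold, and Creld2 by 1.45-fold. The calls were 2 of 34 lower, against 3.16% of all genes, and 0 of 34 higher, against 0.577% (3.73% in either direction). No ER gene was higher at an unadjusted p under 0.05 (747 of all 16634 genes) or by DESeq2 or limma-voom. At that unadjusted p 11 were lower, against 1258 of all 16634 genes. The 3 PLX3AP libraries all lay below those of 3AP in 14 of the 34 genes (9.88% of all genes) and all above in 0 (6.16%). The median log2 fold change of the 34 genes was -0.12, against -0.01 over all genes. This comparison shares its 3AP libraries with the first, so the values of both stand side by side and were not tested against each other.

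In PLX3AP against 3AP the log2 fold change of Hspa5 was -0.36 (SE 0.068, edgeR adjusted p = 0.007), a level 22.3% lower. Creld2 (chromosome 15, 88819646 to 88826683, plus strand) encodes a secreted ER stress protein. It measured 17.4, 17.2 and 21.7 CPM in control, 22.2, 19.5 and 18.4 in 3AP, and 12.04, 14.9 and 14.0 in PLX3AP. Control and 3AP overlapped, and every PLX3AP library was below both. Its log2 fold change in PLX3AP against 3AP was -0.54 (SE 0.129, edgeR adjusted p = 0.036). The call was lost without 3AP replicate 1 or 2 or any one PLX3AP library (adjusted p of 0.054 to 0.18), on TPM (0.052 to 0.1), and with the replicate block (0.09). Manf had a log2 fold change of -0.26 in this comparison and was not called (edgeR adjusted p = 0.25). Cdnf, the paralogue of Manf, averaged 1.55, 1.56 and 1.48 CPM in control, 3AP and PLX3AP. On the TPM scale its means were 1.27 ± 0.914, 0.910 ± 0.207 and 2.67 ± 1.75, so the order of its groups differed between the scales.

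All 9 chaperones had log2 fold changes below 0 in PLX3AP against 3AP (51.8% of all genes), with a median of -0.25, although only Hspa5 was called. Hsp90b1, the ER paralogue of HSP90, averaged 338 ± 13.7 CPM in control, 327 ± 33.0 in 3AP and 254 ± 32.1 in PLX3AP (edgeR adjusted p = 0.096 against 3AP). Dnajc3, a co-chaperone of BiP, averaged 93.0 ± 3.03, 99.5 ± 2.58 and 79.8 ± 8.39 CPM (edgeR adjusted p = 0.069 against 3AP). Without PLX3AP replicate 1 both were called, at adjusted p of 0.013 and 0.0079, as was Edem1 of the degradation genes (0.045), while Creld2 was not (0.078), so that 4 ER genes were called lower. Of all 17004 genes tested without that library, 571 were called lower. With DESeq2 on all 9 libraries 5 ER genes were called lower, against 595 of the 28555 genes it fitted. Those fitted genes include many with too few counts for edgeR's test.

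Microglial markers, summed above, were highest in 3AP and lowest in PLX3AP. That order of group means was held by 3 of the 34 ER genes (Creld2, Dnajc3 and Cdnf) and by 16.2% of all genes. Endothelial markers summed to 186 to 199 CPM in control, 271 to 289 in 3AP and 201 to 204 in PLX3AP, and blood leukocyte markers to 1.11 to 3.85, 9.63 to 24.1 and 1.43 to 2.18 CPM. Of 8 microglial markers, 6 were called lower in PLX3AP against 3AP, and of 6 endothelial markers, 3. Plasma cells are rich in ER chaperones. Their markers, with those of B cells, summed to 2.99 to 4.47, 5.0 to 7.36 and 1.69 to 3.51 CPM, with Mzb1 at no more than 0.049 CPM in any library. The part of these cells, too, was not tested.

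PLX3AP set against control spans both agents. Of the 20 genes called in all, 3 were ER genes, and Hspa5 had the smallest p of the 16634. Hspa5, Manf and Pdia3 fell, by 1.82-fold, 1.77-fold and 1.36-fold, and no ER gene was called higher. The calls were 3 of 34 lower, against 0.0842% of all genes, and 0 of 34 higher, against 0.0361% (0.12% in either direction). The 34 genes were chosen with earlier results of these data known, so these shares carry no test. At an unadjusted p under 0.05, 14 ER genes were lower and 1 higher, against 793 lower and 763 higher of all 16634 genes. Neither DESeq2 nor limma-voom called any ER gene higher. The 3 PLX3AP libraries were all below control in 14 of the 34 genes (5.48% of all genes) and all above in 1, Eif2ak3 (9.14% of all genes). The median log2 fold change of the 34 genes was -0.12, against 0.0 over all genes.

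For Hspa5 the log2 fold change in PLX3AP against control was -0.87 (SE 0.068, edgeR adjusted p = 0.00027), a level 45.1% lower. Over the fit and its 15 alternatives its rank by p was 1 or 2. Ttr measured 92.9, 305 and 3764 CPM in control, where Hspa5 measured 431, 454 and 469.9 CPM. In 3AP the values were 912, 1867 and 584 CPM for Ttr and 341, 329 and 310.5 CPM for Hspa5. In PLX3AP they were 1902, 11.4 and 1776 CPM for Ttr and 247, 251 and 257 CPM for Hspa5. The part of Ttr-rich tissue in Hspa5 was not tested. Manf ranked 7, with a log2 fold change of -0.82 (SE 0.097, edgeR adjusted p = 0.0038). Xbp1 was not called (log2 fold change -0.44, SE 0.082, edgeR adjusted p = 0.084), although DESeq2 called it (adjusted p = 0.00092).

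Pdia3 (chromosome 2, 121413775 to 121438687, plus strand) encodes a disulfide isomerase that works with calreticulin and calnexin on glycoproteins. It measured 233, 233 and 252 CPM in control, 213, 218 and 209.8 in 3AP, and 181, 181 and 174 in PLX3AP. The 3 groups did not overlap, and 3AP lay between the others. Its log2 fold change in PLX3AP against control was -0.44 (SE 0.065, edgeR adjusted p = 0.02). The call was lost on TPM (adjusted p of 0.1 to 0.11), in a fit of only the 2 groups (0.075), with the replicate block (0.13), and without any one control library or PLX3AP replicate 2 or 3 (0.061 to 0.12). Against 3AP the log2 fold change was -0.24 (edgeR adjusted p = 0.068).

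The chaperones had a median log2 fold change of -0.37 in PLX3AP against control, with 9 of 9 below 0 (49.6% of all genes) and every PLX3AP library below control in 8 of 9 (5.48% of all genes). Sdf2l1, a luminal partner of BiP's co-chaperones, had the largest fitted decrease of the 34, from 22.4 ± 4.99 CPM in control through 16.9 ± 5.35 in 3AP to 10.4 ± 1.49 in PLX3AP, but its spread was wide (log2 fold change -1.13, SE 0.232, edgeR adjusted p = 0.17). Dnajb11, another co-chaperone of BiP, averaged 70.3 ± 8.38, 59.3 ± 1.55 and 52.8 ± 1.30 CPM (log2 fold change -0.43, edgeR adjusted p = 0.1). Both calcium-binding lectins, Calr and Canx, had PLX3AP libraries all below control. Calr averaged 393 ± 35.5, 369 ± 20.5 and 308 ± 44.1 CPM. Canx, calnexin, averaged 358 ± 1.07, 332 ± 4.98 and 324 ± 7.07 CPM. The groups of Dnajb9, a co-chaperone that restrains IRE1, overlapped, at means of 56.6, 54.3 and 50.6 CPM. Hyou1, a nucleotide exchange factor for BiP, averaged 94.4, 91.1 and 79.2 CPM. DESeq2 called 9 ER genes lower in this comparison, adding Hsp90b1, Dnajb11, Sdf2l1, Pdia4, Pdia6 and Xbp1. Of all 28555 genes it fitted, including many with too few counts for edgeR's test, it called 65 lower. Leaving out PLX3AP replicate 1 gave 5 ER genes and 153 genes in all, 132 of them lower, of 17004 tested.

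Among the other isomerases, Pdia4 and Pdia6 had PLX3AP libraries all below control without passing the test, and the groups of P4hb, Txndc5, Ppib and Fkbp2 overlapped in that comparison. Pdia4 averaged 56.7 ± 6.92, 49.2 ± 7.12 and 38.8 ± 4.20 CPM in control, 3AP and PLX3AP (log2 fold change against control -0.57, edgeR adjusted p = 0.15). Pdia6 averaged 105, 102 and 83.1 CPM (log2 fold change -0.36, edgeR adjusted p = 0.23). P4hb, the classical disulfide isomerase, averaged 124, 140.0 and 127 CPM. None of the remaining isomerases was called in any comparison. Txndc5, a further member of the disulfide isomerase family, averaged 56.8, 58.3 and 61.0 CPM. Ppib, a prolyl isomerase, averaged 82.7, 92.0 and 83.3 CPM. Fkbp2, a prolyl isomerase of another family, averaged 63.7, 56.4 and 59.4 CPM. Pdia5, the least abundant of the 34 in control, had 3AP libraries above both other groups. It averaged 0.952, 1.86 and 1.18 CPM, with a log2 fold change of 0.93 in 3AP against control that did not pass (SE 0.345, edgeR adjusted p = 0.18).

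**Figure D4:**
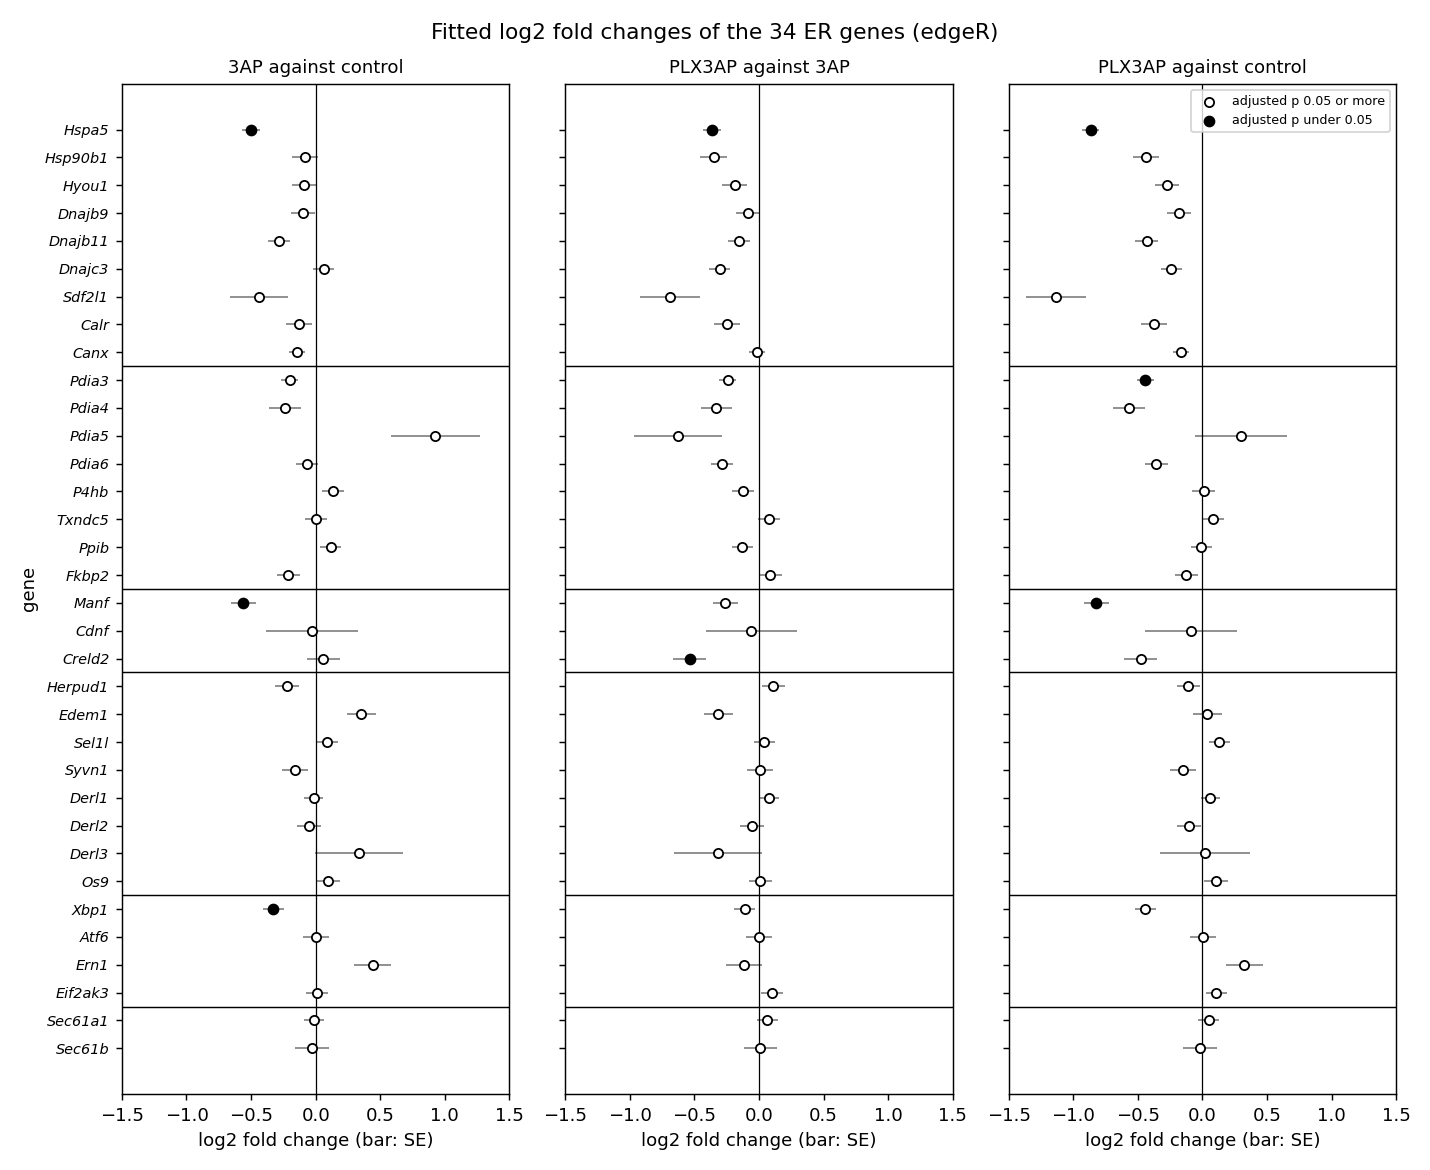
Fitted log2 fold changes of the 34 ER genes (points, bars for 1 SE) in the 3 comparisons, filled where the adjusted p was under 0.05. Hspa5 is filled in all 3 panels (-0.50, -0.36 and -0.87), and the 9 chaperones in the top block all lie left of 0 in the right panel.

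Ordered by group mean, 15 of the 34 ER genes stepped down from control to 3AP to PLX3AP, an order held by 14.9% of all genes tested. Another 9 had their highest mean in 3AP and their lowest in control (23.9% of all genes), 5 had means that stepped up from control to 3AP to PLX3AP (17.2%), and 2 were lowest in 3AP and highest in control (13.7%). These orders are of CPM, without the normalisation factors of the fitted changes, so small steps can differ in sign. Derl1, counted as stepping up, averaged 107 and 109 CPM in control and 3AP, with a fitted log2 fold change of -0.016. Control replicate 3, the library with the most Ttr (3764 CPM), was the highest in 15 ER genes. PLX3AP replicate 1, also with much Ttr (1902 CPM), was the lowest in 15. The same counts were not made over all genes, so they cannot be read as particular to the ER genes. The part of Ttr-rich tissue in these values was not tested.

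Calls fell on genes with and without the elements printed above. The 9 ER genes with an ERSE had median log2 fold changes of -0.08 in 3AP against control, -0.30 in PLX3AP against 3AP and -0.36 in PLX3AP against control. The 18 ER genes with a window and no exact match to either element had medians of -0.01, -0.10 and -0.01. In PLX3AP against control these 18 ran from -1.13 to 0.32, and the 9 with an ERSE from -0.87 to 0.02. The groups also differ in the roles of their genes, and role was not separated from the element. The 11 tested genes outside the list that hold an ERSE had medians of 0.03, 0.01 and 0.02, and 1 of them, Acacb, an acetyl-CoA carboxylase, was called (higher in 3AP against control). Among ER genes with an ERSE, Hspa5 and Creld2 were called in some comparison. Xbp1 and Pdia3 were called with no exact match in their windows, and Manf had no window. Elements that depart from the exact letters or lie outside the windows were not searched. These groups were formed from sequence after values were known and carry no test.

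**Figure D5:**
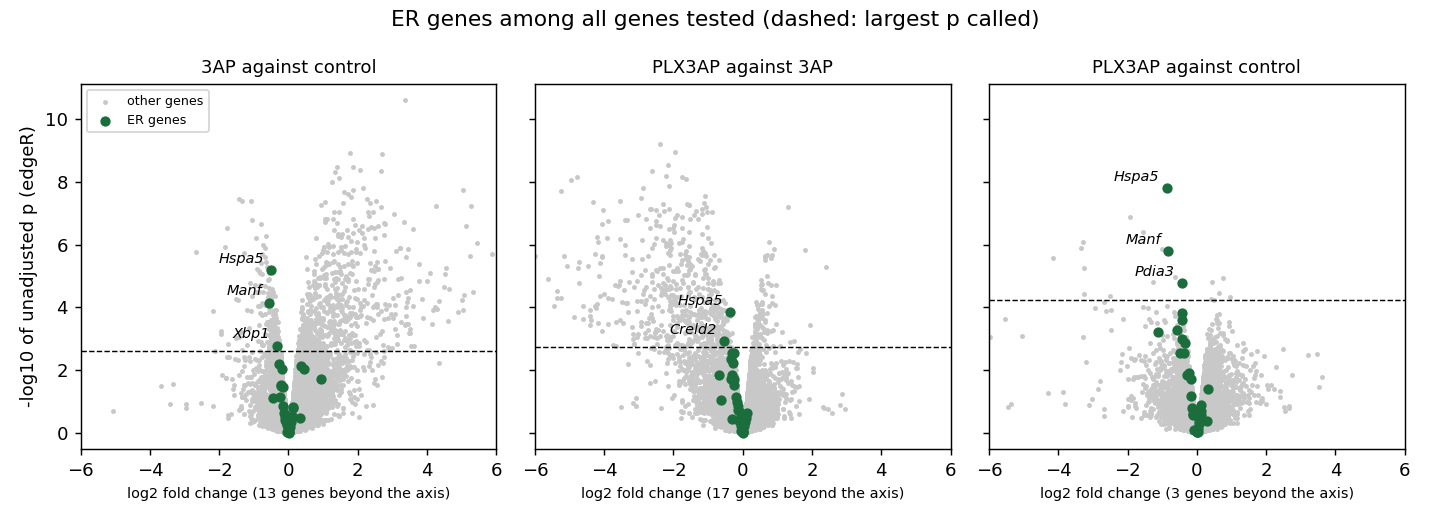
Log2 fold change against -log10 of the unadjusted p of edgeR for all 16634 genes (grey) and the 34 ER genes (green) in the 3 comparisons, with the dashed line at the largest p called. Hspa5 is the highest point in PLX3AP against control, where 20 genes were called, and ranks 150 in 3AP against control, where 820 were.

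Genes of related pathways were read against the shares of all genes called, 4.93% in 3AP against control, 3.73% in PLX3AP against 3AP and 0.12% in PLX3AP against control. From lists of this size those shares give few calls or none, and the counts below describe the lists and carry no test. In the PERK branch and integrated stress response, 17 of 18 genes were tested and 0 were called in 3AP against control, where 2 were higher and 2 lower at an unadjusted p under 0.05 and DESeq2 called 3 and limma-voom 1. In PLX3AP against 3AP, Asns, asparagine synthetase and an ATF4 target, rose from 91.2 ± 3.94 to 115 ± 8.57 CPM (edgeR adjusted p = 0.014, log2 fold change 0.35, SE 0.07). Slc7a11, the cystine transporter, fell there from 35.1 ± 2.45 to 22.1 ± 5.80 CPM (edgeR adjusted p = 0.045, log2 fold change -0.65, SE 0.16). In PLX3AP against control 0 were called by any of the 3 tools, with 1 higher and 1 lower at an unadjusted p under 0.05. Atf4 averaged 189.7 ± 13.3, 167 ± 4.35 and 197 ± 3.25 CPM in control, 3AP and PLX3AP and was not called by edgeR, although DESeq2 called it lower in 3AP against control and higher in PLX3AP against 3AP. The medians of this list were 0.02, 0.0 and 0.08 in the 3 comparisons.

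Of 34 other folding enzymes and lectins tested, 21 other degradation genes and 25 genes of the translocon, signal peptidase and oligosaccharyltransferase, edgeR and limma-voom called 0 in any comparison. At an unadjusted p under 0.05, these 3 lists held 2 higher and 5 lower genes in 3AP against control, 2 and 2 in PLX3AP against 3AP, and 2 and 5 in PLX3AP against control. DESeq2 called 1 degradation gene lower in 3AP against control, and 1 folding gene higher and 1 lower in PLX3AP against 3AP. Their median log2 fold changes ran from -0.07 to 0.02. Of 11 other regulators, Crebrf rose in 3AP against control, from 54.5 ± 1.34 to 71.2 ± 5.91 CPM (edgeR adjusted p = 0.034, log2 fold change 0.35, SE 0.09).

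The heat shock genes read here are mostly cytosolic chaperones, outside the ER, but include the transcription factor Hsf1 and the mitochondrial Hspe1 and Hspd1. They had a median log2 fold change of -0.29 in 3AP against control, with 10 of 13 below 0. There edgeR and limma-voom called 3 of the 13 lower and 0 higher, against 1.18% of all genes lower by edgeR. DESeq2 called 6 lower, against 299 of the 28555 genes it fitted, low counts included. At an unadjusted p under 0.05, 7 were lower. Hsph1, a cytosolic exchange factor for HSP70, fell from 189 ± 13.1 to 139 ± 8.98 CPM (edgeR adjusted p = 0.0026, log2 fold change -0.48, SE 0.08). Hspd1, which is mitochondrial, and Dnaja1 fell as well (log2 fold changes -0.32 and -0.40, edgeR adjusted p of 0.032 and 0.049). In PLX3AP against 3AP only the small heat shock protein Hspb1 fell, from 21.5 ± 4.68 to 10.5 ± 2.00 CPM (edgeR adjusted p = 0.0099), and the list's median was 0.01. In PLX3AP against control the median was again -0.29, but edgeR and limma-voom called 0, DESeq2 called 3 lower, and 8 were lower at an unadjusted p under 0.05.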

How the data were processed

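RNA was measured by bulk sequencing in 9 libraries of mouse cerebellum, 3 each of control, 3AP and PLX3AP, grouped by their labels. The tools the authors named, per the submitters' processing notes, were fastp, HISAT2, StringTie and RSEM, with the mm10 build. The sources used here give no versions, annotation release or strandedness. The deposited expected counts are reads estimated per gene, not normalised (28.7 to 30.8% of values above 0 were not whole). The deposited TPM values were scaled by the authors to transcript length and library total. Rows with no gene name (1884 of 55808, 0.526 to 0.66% of counts) were left out.

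Expected counts were rounded. The main test was edgeR 4.0.16 (R 4.3.3), with 16634 genes kept by filterByExpr, TMM factors of 0.986 to 1.02 and a robust quasi-likelihood fit of the 9 libraries with the group as its only factor. P-values are two-sided and Benjamini-Hochberg adjusted over all genes of a comparison, with calls under 0.05. CPM, means, SDs and fold changes were computed here from the counts. CPM, and the group orders and overlaps read from it, used library totals without the TMM factors that the fitted fold changes use. The method was tested on simulated data. Alternatives were DESeq2 1.42.0, RLE factors, no filter, limma-voom and limma-trend (limma 3.58.1) on TPM, 2-group fits, a replicate block, and leaving out each library. No pair of libraries of a group agreed within sampling noise (chi-square over its degrees of freedom, 4.68 to 27.2).

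The members and the gene lists were chosen with earlier results of these data known. By the rule for named genes, all 34 members are named. Those called in any comparison and the sensors are given library by library, and other members by means. Up to 8 called genes of each further list were named. Ero1l and Ero1lb were matched as Ero1a and Ero1b through RefSeq synonyms. Tusc3 is not analysed here. Expected counts divide reads shared between similar genes. Promoter windows are RefSeq's (GRCm38.p6, 32851 windows).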

Additional observations from a re-analysis of the deposited data

How the results depend on the processing

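No value of a single ER gene reversed while past the threshold: of 1530 alternative values of the 34 genes in 3 comparisons, 1477 kept their side of the threshold, 28 lost a call and 25 gained one. Hspa5 stayed called lower in all 3 comparisons under every alternative, and Manf in 3AP against control and PLX3AP against control. ER genes called lower in 3AP against control numbered 3, and 2 to 4 under every alternative. In PLX3AP against 3AP they numbered 2, but 5 with DESeq2, 4 with no filter on low counts, 1 on log2(TPM + 1), 1 on log2(TPM + 0.1), and 1 to 4 leaving out single libraries (4 without PLX3AP replicate 1, 1 without 3AP replicate 1 or 2 or PLX3AP replicate 2 or 3). In PLX3AP against control they numbered 3, but 9 with DESeq2, 7 with no filter, and 2 to 5 leaving out single libraries (5 without PLX3AP replicate 1). All genes called in 3AP against control numbered 820, but 482, 416 and 425 on TPM (pseudocounts 1 and 0.1, and no filter, the last 371 higher and 54 lower against 623 and 197), and 466 to 798 leaving out single libraries (lowest without 3AP replicate 1, and 487 without control replicate 1, 515 with control replicate 2 left out and 504 without 3AP replicate 2). In PLX3AP against 3AP they numbered 621, but 379, 325 and 347 on TPM and 401 to 715 leaving out single libraries (401 without 3AP replicate 1). In PLX3AP against control they numbered 20, 6 higher and 14 lower, but 105 with DESeq2, 71 with no filter, 5, 5 and 4 on TPM, and 7 to 153 leaving out single libraries (153 without PLX3AP replicate 1, 8 with control replicate 1 or 2 left out, 7 and 13 without PLX3AP replicate 2 and 3). The split there was 2 higher and 12 lower with limma-voom, 1 and 4 or 0 and 4 on TPM, and 3 and 13 with only the 2 groups. The cause was not tested. Leaving out a library also leaves fewer samples. No pairing by replicate number was apparent: deviations of same-numbered libraries correlated at -0.2 to 0.09 over 9 pairs and those of others at -0.11 to 0.23 over 18. With 3 libraries a group these deviations depend on each other, so pairing is not excluded. With the number as a replicate block, all genes called were 580, 504 and 10 in the 3 comparisons, and ER genes called lower were 2, 1 and 2, with the calls of Xbp1, Creld2 and Pdia3 lost in turn. Genes under about 50 counts a library (Pdia5, Cdnf, Derl3) are limited by depth.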
